A study of Bos taurus with 32 samples.

Results

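The secretory pathway and vesicle coat genes were taken as all genes on the array whose annotated symbol begins with SEC and a digit, COPA, COPB, COPE, COPG, COPZ, TRAPPC, TMED, SPCS or SRP and a digit, or is one of the signal sequence receptor genes SSR1, SSR2, SSR3 and SSR4. They numbered 58 of the 9155 genes with a symbol on the array. Where a gene had several probe sets, the one that was brightest on average was used. Liver biopsies came from Ayrshire dairy cows whose energy intake was either controlled (CON) or high (HIGH) over the 6 weeks before predicted calving. The first biopsy was taken 8 d before the predicted date (-8 d), and the later ones followed actual calving by 1 d and by 9 d. No drug, genetic change or untreated group was named, the ages were not stated, and CON is the comparison diet. Of the 32 arrays, 15 were from CON cows (5 from -8 d, 4 from 1 d and 6 from 9 d) and 17 from HIGH cows (5 from -8 d, 6 from 1 d and 6 from 9 d). They came from 12 cows, 6 per diet, of which 8 (3 CON and 5 HIGH) had an array on all 3 days.

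Hepatocytes secrete most plasma proteins. A new secretory protein is recognised on the ribosome by the signal recognition particle (SRP), threaded through the SEC61 channel into the endoplasmic reticulum (ER), and trimmed by signal peptidase. COPII-coated vesicles carry it from the ER to the Golgi, TMED proteins act as cargo receptors on these vesicles, COPI-coated vesicles bring receptors and escaped ER proteins back, and TRAPP complexes tether arriving vesicles. The members were therefore read in this order, in 8 role classes plus a pair of lipid-binding genes (SEC14L1 and SEC14L2) that share only the symbol pattern.

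At 1 d against -8 d, averaged over the diets, 30 of the 58 genes rose and 6 fell (limma, adjusted p under 0.05), where 16.5% of all 9155 genes rose and 12.3% fell. The median log2 fold change was 0.198 for the 58 genes and 0.0004 for all genes. Apart from COPG2, SEC31B and SEC22C, the genes read on average above the array medians (5.87 to 5.935). The share of all genes was not matched for level, here or below. A log2 fold change of 1 is a 2-fold difference, and SE is its standard error from the fit. By class, the genes that rose were 2 of 5 for SRP, 9 of 10 for the translocon and its partners, 4 of 5 for signal peptidase, 3 of 7 for the COPII coat, 2 of 4 for the SEC22 genes with SEC23IP, 7 of 9 for TMED, 2 of 8 for the COPI coat and 1 of 8 for TRAPP. Of the 6 that fell, 3 were TRAPP genes, and the others were SEC16B, TMED6 and COPZ2. Of the 36 calls, 29 held in each of 44 fits that left out 1 array or 1 cow. The exceptions were COPZ2, SEC22C, SEC24C, SPCS2, TMED10, TRAPPC11 and TRAPPC9, and no gene of the 36 changed sign in these fits. Under the other settings as well, 25 of the 36 held throughout. COPB2 and TRAPPC3 were lost with only the cows that had all 3 days, and SEC61A2 and TMED5 when probe sets were averaged.

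**Figure D1:**
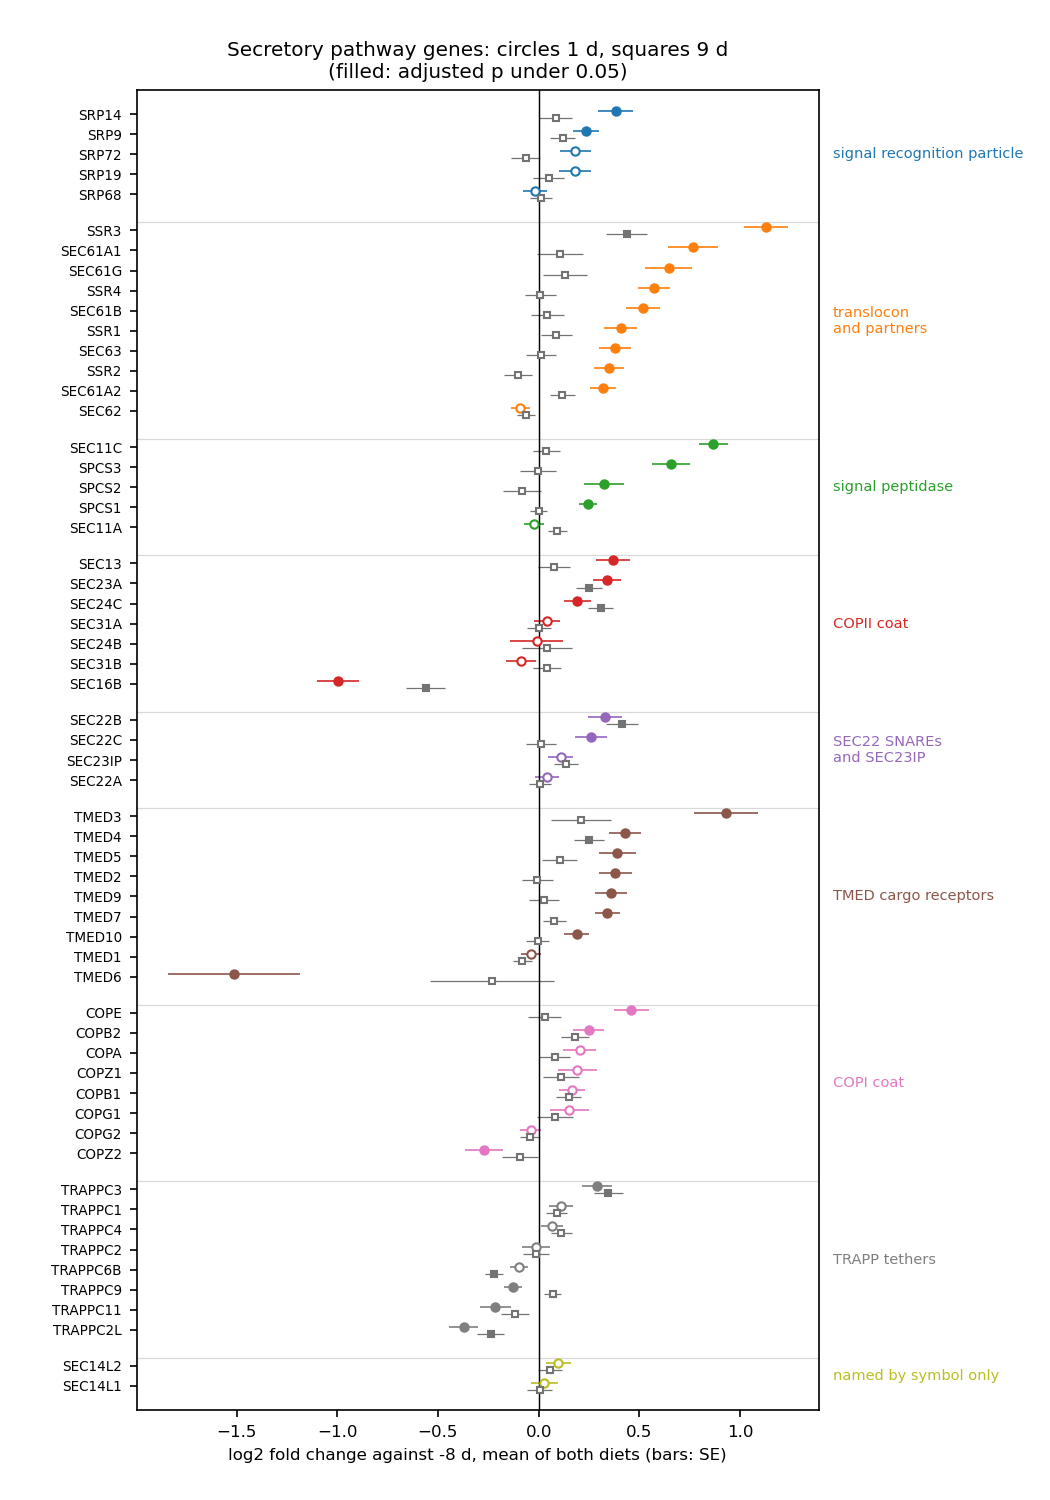
Log2 fold change of each of the 58 genes against -8 d, averaged over the diets, at 1 d (circles, coloured by role class) and 9 d (grey squares), with SE bars; filled symbols passed an adjusted p of 0.05. At 1 d the translocon genes lie to the right of 0 except SEC62, with SSR3 at 1.13, while SEC16B (-1.0) and TMED6 (-1.51) lie far to the left. Most squares, for 9 d, lie nearer 0.

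SRP binds the signal sequence as it leaves the ribosome. Of its 5 measured proteins, SRP9 and SRP14, which form the part that slows translation, rose. At -8 d SRP14 read 9.98, 9.86, 9.81, 9.93 and 9.90 in the CON cows and 9.67, 9.79, 9.71, 9.87 and 10.02 in the HIGH cows. At 1 d SRP14 read 10.48, 9.83, 10.12 and 10.04 in CON, and from 9.94 to 10.80 in HIGH with a median of 10.28. It was higher at 1 d in 7 of 8 cows, although the days overlapped, with a log2 fold change of 0.38 (SE 0.09, adjusted p = 0.00175). SRP9 went from 9.36, 9.28, 9.41, 9.60 and 9.38 (CON -8 d) and 8.90, 9.35, 9.43, 9.43 and 9.11 (HIGH -8 d) to 9.68, 9.57, 9.78 and 9.40 (CON 1 d) and 9.38 to 9.59 with a median of 9.49 (HIGH 1 d). It was higher in 8 of 8 cows, by 0.23 (SE 0.06, adjusted p = 0.00848). SRP72 (0.18, adjusted p = 0.0918) and SRP19 (0.18, adjusted p = 0.104) did not pass the threshold.

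SRP68, the partner of SRP72 on the signal-sequence side of the particle, had the lowest change of the class, -0.02 (SE 0.06, adjusted p = 0.85). Its values were 7.52, 7.32, 7.53, 7.34 and 7.48 in CON and 7.44, 7.37, 7.48, 7.41 and 7.49 in HIGH at -8 d, and 7.74, 7.22, 7.48 and 7.26 in CON and 7.23 to 7.74 (median 7.33) in HIGH at 1 d. These ranges overlapped in full.

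The translocon class held the SEC61 channel subunits, SEC62 and SEC63, which help to thread proteins in, and the 4 SSR genes, which encode the translocon-associated protein complex beside the channel. It was the class with the most calls. SSR3 (the gamma subunit of that complex) rose most of all 58 genes. At -8 d SSR3 read 11.13, 10.63, 10.64, 10.73 and 10.71 in CON and 10.46, 10.55, 10.27, 10.40 and 10.57 in HIGH. At 1 d SSR3 read 11.61, 11.29, 11.68 and 12 in CON and 11.43 to 12.39 in HIGH, with a median of 11.80. Every 1 d array lay above every -8 d array. The log2 fold change was 1.13 (SE 0.11, adjusted p = 1.14e-08), and all 8 cows rose, by 0.48 to 1.84.

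SSR4, the delta subunit, read 11.79, 11.76, 11.71, 11.62 and 11.97 (CON) and 11.72, 11.65, 11.48, 11.49 and 11.81 (HIGH) at -8 d. At 1 d SSR4 read 11.81, 12.40, 12.47 and 12.24 in CON and 12.11 to 12.55 in HIGH, with a median of 12.30. The days overlapped only through cow 445, which read 11.79 and 11.81, and SSR4 rose by 0.57 (SE 0.08, adjusted p = 4.4e-06). SSR1 (0.41, adjusted p = 0.000406) and SSR2 (0.35, adjusted p = 0.000818) rose less, so all 4 subunits of the complex passed the test.

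SEC61A1 encodes the main form of the pore itself. At -8 d SEC61A1 read 10.91, 10.38, 10.57, 10.60 and 10.66 in CON and 10.29, 10.51, 10.32, 10.26 and 10.57 in HIGH. At 1 d SEC61A1 read 11.23, 10.62, 10.95 and 11.28 in CON and 10.53 to 11.97 in HIGH, with a median of 11.58. The lowest HIGH array at 1 d lay inside the -8 d range, but each of the 8 cows with both days was higher at 1 d, by 0.24 to 1.45 (log2 fold change 0.77, SE 0.12, adjusted p = 2.85e-05). The small channel subunits SEC61G (0.65, adjusted p = 0.000124) and SEC61B (0.52, adjusted p = 4.54e-05) rose as well, and so did SEC63 (0.38, adjusted p = 0.000699). A further SEC63 probe set rose by 0.48 (adjusted p = 0.000322), while its dimmest (mean level 8.04) changed by -0.07 (adjusted p = 0.326). SEC61A2, the other pore isoform, rose by 0.32 (adjusted p = 0.000417) at its main probe set. None of its other 4 probe sets passed, their changes lay between -0.12 and 0.15, and the call was lost when all 5 were averaged. Those 4 were dimmer, with mean levels of 3.14, 3.53, 4.06 and 5.63 against 6.97 for the main one. The one at 5.63 changed by 0.004. Whether dimness plays a part in their lack of calls was not tested, so the rise of SEC61A2 rests on its main probe set alone.

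SEC62 was the 1 translocon gene that did not rise. It read 11.24, 11.19, 11.35, 11.29 and 11.17 in CON and 11.27, 11.34, 11.42, 11.43 and 11.32 in HIGH at -8 d. At 1 d SEC62 read 11.11, 11.24, 11.15 and 11.21 in CON and 11.09 to 11.37 in HIGH, with a median of 11.27. Its log2 fold change was -0.09 (SE 0.05, adjusted p = 0.16), with 6 of 8 cows lower.

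Signal peptidase removes the signal sequence inside the ER. It has either SEC11A or SEC11C as its catalytic subunit, and SPCS1, SPCS2 and SPCS3 as its other subunits. Of the catalytic subunits, SEC11C rose and SEC11A did not pass. At -8 d SEC11C read 11.22, 10.92, 11.16, 11.20 and 10.99 in CON and 10.99, 10.87, 10.91, 10.76 and 11.10 in HIGH. At 1 d SEC11C read 11.57, 11.51, 11.88 and 12.09 in CON and 11.67 to 12.24 in HIGH, with a median of 12. No 1 d array overlapped a -8 d array, and SEC11C rose by 0.87 (SE 0.07, adjusted p = 6.04e-10), the smallest p of the 58 genes.

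SEC11A read 11.41, 11.63, 11.45, 11.65 and 11.39 in CON and 11.41, 11.49, 11.43, 11.36 and 11.31 in HIGH at -8 d. At 1 d SEC11A read 11.33, 11.49, 11.48 and 11.45 in CON and 11.26 to 11.72 in HIGH, with a median of 11.42. Its change was -0.02 (SE 0.05, adjusted p = 0.799). Within the 8 cows the change of SEC11C exceeded that of SEC11A by 0.95 ± 0.35 (SD), in 8 of 8 cows. The pair was set side by side after its values were seen, so this is a description and no p-value is read from it.

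SPCS3, which is needed for the activity of the complex, read 10.33, 10.22, 10.14, 10.36 and 10.15 (CON) and 9.74, 10.07, 9.99, 10.09 and 10.10 (HIGH) at -8 d. At 1 d SPCS3 read 10.80, 10.36, 10.48 and 10.95 in CON and 10.45 to 11.44 in HIGH, with a median of 10.88. The ranges of the days met at 10.36 and did not otherwise overlap. SPCS3 rose by 0.66 (SE 0.10, adjusted p = 7.78e-06), in 8 of 8 cows. SPCS1 (0.25, adjusted p = 0.000165) and SPCS2 (0.33, adjusted p = 0.0173) also rose. The SPCS2 call was lost without CON 1 d replicate 1 or without its cow, 445 (highest adjusted p of the left-out fits 0.0672).

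**Figure D2:**
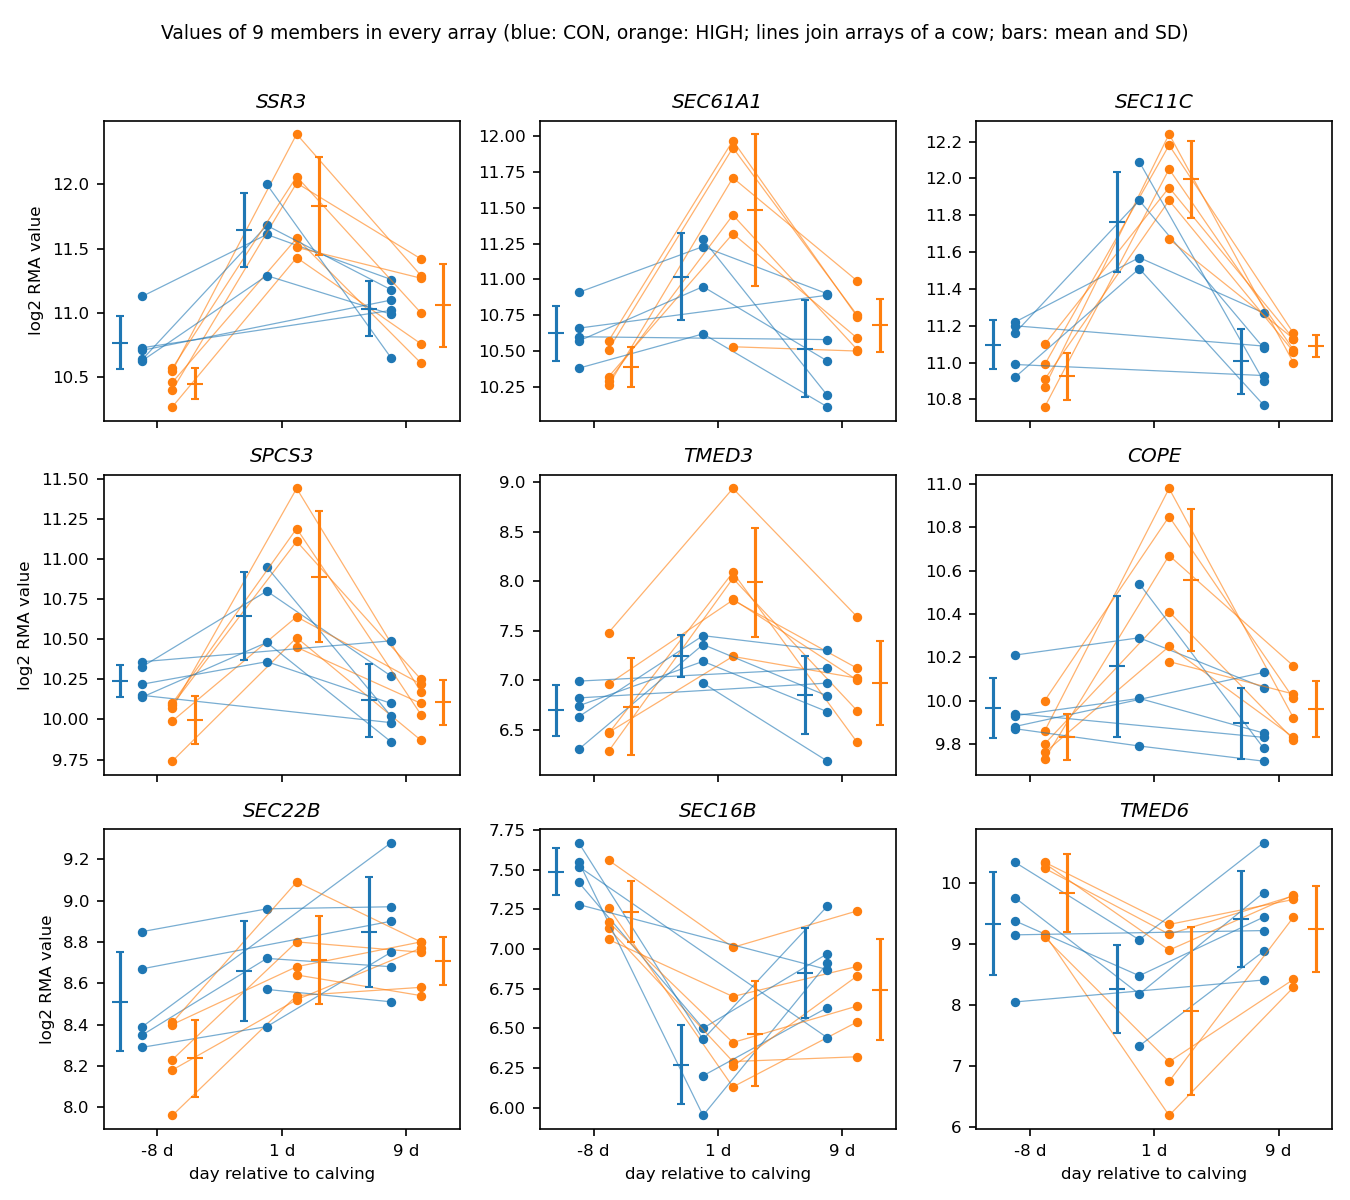
Log2 values of 9 genes in every array by day, CON in blue and HIGH in orange, with lines joining the arrays of a cow and bars for the mean and SD of each group. SSR3, SEC61A1, SEC11C, SPCS3, TMED3 and COPE peak at 1 d, SEC22B stays high at 9 d (8.51 to 9.28), and SEC16B and TMED6 dip at 1 d.

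The COPII coat gathers cargo at ER exit sites. SEC16 proteins organise these sites, SEC23 and SEC24 form the inner coat and SEC13 and SEC31 the outer coat. Here the genes went both ways. SEC16B fell by 1.00 on the log2 scale (SE 0.10, adjusted p = 5.42e-08). At -8 d SEC16B read 7.42, 7.67, 7.55, 7.52 and 7.28 in CON and 7.06, 7.56, 7.13, 7.26 and 7.17 in HIGH. At 1 d SEC16B read 6.5, 6.43, 5.95 and 6.20 in CON and 6.13 to 7.01 in HIGH, with a median of 6.35. All 1 d arrays were below all -8 d arrays, and the changes of the 8 cows ran from -1.60 to -0.36.

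SEC23A, which activates the GTPase that drives coat assembly, read 9.94, 9.72, 9.77, 9.71 and 9.79 (CON) and 9.43, 10.04, 9.89, 9.65 and 9.72 (HIGH) at -8 d. At 1 d SEC23A read 9.98, 10.43, 10.26 and 10.22 in CON and 9.79 to 10.16 in HIGH, with a median of 10. It rose by 0.34 (SE 0.07, adjusted p = 0.000576), in 8 of 8 cows, with overlap between the days. SEC13 rose by 0.37 (adjusted p = 0.00171). SEC24C, a cargo-binding subunit, rose by 0.19 (adjusted p = 0.0342), a call lost in 14 of the 44 fits that left out 1 array or cow (highest adjusted p 0.11). The call was also lost with no block for cow, after a further quantile normalisation and with only the cows that had all 3 days. SEC31A (0.04, adjusted p = 0.695), SEC31B (-0.09, adjusted p = 0.439) and SEC24B (-0.01, adjusted p = 0.972) did not pass.

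The SEC22 genes encode related proteins of the step between ER and Golgi. SEC22B, the vesicle SNARE of that step, read 8.85, 8.29, 8.35, 8.39 and 8.67 (CON) and 7.96, 8.23, 8.40, 8.18 and 8.41 (HIGH) at -8 d. At 1 d SEC22B read 8.96, 8.39, 8.72 and 8.57 in CON and 8.52 to 9.09 in HIGH, with a median of 8.66. All 8 cows were higher at 1 d, and SEC22B rose by 0.33 (SE 0.08, adjusted p = 0.00477), although the days overlapped.

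SEC22C read 5.9, 5.68, 5.77, 5.80 and 5.37 in CON and 5.94, 5.9, 5.78, 5.40 and 5.70 in HIGH at -8 d. At 1 d SEC22C read 5.69, 6.20, 6.07 and 6.12 in CON and 5.78 to 6.20 in HIGH, with a median of 5.97. It rose by 0.26 (SE 0.08, adjusted p = 0.0161), in 7 of 8 cows. That call was lost without cow 477 (0.23, adjusted p = 0.0719) and with cow as a fixed block (0.23, adjusted p = 0.069). SEC22A was at 6.86, 6.80, 6.71, 6.75 and 6.84 (CON -8 d), 6.70, 6.73, 6.82, 6.73 and 6.81 (HIGH -8 d), 6.82, 6.69, 7.01 and 6.81 (CON 1 d) and 6.65 to 6.90 with a median of 6.82 (HIGH 1 d). Its change was 0.04 (SE 0.06, adjusted p = 0.665), and that of SEC23IP, which binds SEC23, was 0.11 (SE 0.06, adjusted p = 0.208).

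TMED proteins (the p24 family) cycle between ER and Golgi in both kinds of coated vesicle. Of the 9 genes, 7 rose. TMED3 read 6.74, 6.63, 6.30, 6.99 and 6.82 (CON) and 6.46, 6.28, 6.96, 6.47 and 7.48 (HIGH) at -8 d. At 1 d TMED3 read 7.19, 7.45, 7.36 and 6.97 in CON and 7.24 to 8.94 in HIGH, with a median of 7.92. It rose in 8 of 8 cows by 0.45 to 1.75, and by 0.93 in the fit (SE 0.16, adjusted p = 6.11e-05). Cow 529 was the highest HIGH cow both at -8 d and at 1 d.

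TMED7 read 11.79, 11.59, 11.45, 11.78 and 11.64 in CON and 11.41, 11.56, 11.81, 11.56 and 11.62 in HIGH at -8 d. At 1 d TMED7 read 12.11, 11.82, 11.76 and 11.79 in CON and 11.82 to 12.35 in HIGH, with a median of 11.92. It rose in 8 of 8 cows as well, with overlapping days (0.34, SE 0.06, adjusted p = 0.000135). TMED4 (0.43, adjusted p = 0.000159), TMED2 (0.38, adjusted p = 0.000825), TMED9 (0.36, adjusted p = 0.00124) and TMED5 (0.39, adjusted p = 0.00194) rose too. The TMED5 call was lost when both of its probe sets were averaged, since the other one changed by -0.14 (adjusted p = 0.0877).

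TMED6 went the other way, and it had the largest change of the 58 genes. At -8 d TMED6 read 9.38, 9.76, 10.34, 9.15 and 8.05 in CON and 10.24, 10.34, 9.16, 9.11 and 10.32 in HIGH. At 1 d TMED6 read 8.48, 8.18, 9.07 and 7.33 in CON and 6.19 to 9.32 in HIGH, with a median of 7.98. Both days were widely spread and overlapped, but each of the 8 cows fell, with changes from -2.97 to -0.90. The fit gave -1.51 (SE 0.33, adjusted p = 0.000987). TMED1 was at -0.04 (SE 0.05, adjusted p = 0.66).

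COPI coat genes code for the subunits of coatomer. COPE, the epsilon subunit, read 10.21, 9.87, 9.93, 9.94 and 9.88 (CON) and 9.80, 9.86, 9.76, 9.73 and 10 (HIGH) at -8 d. At 1 d COPE read 10.29, 9.79, 10.01 and 10.54 in CON and 10.18 to 10.98 in HIGH, with a median of 10.54. It rose by 0.46 (SE 0.09, adjusted p = 0.000205), in 7 of 8 cows. All HIGH arrays at 1 d lay above all HIGH arrays at -8 d, while the CON days overlapped.

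COPB2, the beta-prime subunit, read 11.19, 10.59, 10.71, 10.90 and 10.76 (CON) and 10.38, 10.79, 10.77, 10.58 and 10.90 (HIGH) at -8 d. At 1 d COPB2 read 11.17, 10.73, 10.80 and 11.18 in CON and 10.82 to 11.32 in HIGH, with a median of 10.97. It rose by 0.25 (SE 0.07, adjusted p = 0.016), a call not reached with the 8 cows that had all 3 days (0.22, adjusted p = 0.101). COPA (0.20, adjusted p = 0.071), COPB1 (0.17, adjusted p = 0.0672), COPZ1 (0.19, adjusted p = 0.161), COPG1 (0.15, adjusted p = 0.271) and COPG2 (-0.04, adjusted p = 0.642) did not pass. COPG2 had a mean level of 3.11, below the lower quartile of all probe sets (4.23), so a change in it could go unseen.

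COPZ2, the less common form of the zeta subunit, read 9.67, 9.80, 10.04, 10 and 9.72 in CON and 10.29, 9.93, 9.87, 10.12 and 9.94 in HIGH at -8 d. At 1 d COPZ2 read 9.81, 9.43, 10.05 and 9.74 in CON and 9.16 to 10.06 in HIGH, with a median of 9.54. It fell by 0.27 (SE 0.10, adjusted p = 0.0404), in 6 of 8 cows, with overlapping days. The call was lost in 18 of the 44 fits that left out 1 array or cow (highest adjusted p 0.109) and with no block for cow (adjusted p = 0.0626). It was also lost with only the cows that had all 3 days. The dimmer COPZ2 probe set changed by -0.30 (limma, adjusted p = 0.017). These other fits were read only at the brighter one.

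TRAPP genes encode a tether at the Golgi, and 3 of the 8 fell while 1 rose. TRAPPC2L had the smallest p of the class and its lowest change. At -8 d TRAPPC2L read 8.53, 8.32, 8.05, 8.52 and 8.48 in CON and 8.44, 8.54, 8.40, 8.64 and 8.57 in HIGH. At 1 d TRAPPC2L read 8.32, 7.95, 7.98 and 8.36 in CON and 7.78 to 8.38 in HIGH, with a median of 7.94. All 8 cows were lower, and TRAPPC2L fell by 0.37 (SE 0.07, adjusted p = 0.000275).

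TRAPPC3, a core subunit, read 8.31, 8.08, 8.25, 8.06 and 8.34 (CON) and 8.16, 8.48, 8.26, 8.15 and 8.62 (HIGH) at -8 d. At 1 d TRAPPC3 read 8.09, 8.48, 8.77 and 8.84 in CON and 8.45 to 8.68 in HIGH, with a median of 8.61. It rose by 0.29 (SE 0.08, adjusted p = 0.00529), in 7 of 8 cows, although not past the threshold with the 8 cows that had all 3 days (0.24, adjusted p = 0.0659). TRAPPC11 fell by 0.21 (adjusted p = 0.0378) and TRAPPC9 fell by 0.13 (adjusted p = 0.0329). Those calls were lost in 20 and 18 of the 44 fits that left out 1 array or cow, and both were lost with no block for cow or with cow as a fixed block. TRAPPC11 was also lost with arrays centred on their medians and with only the cows that had all 3 days. TRAPPC1 (0.11, adjusted p = 0.169), TRAPPC4 (0.07, adjusted p = 0.423), TRAPPC2 (-0.01, adjusted p = 0.926) and TRAPPC6B (-0.10, adjusted p = 0.133) did not pass.

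The SEC14L genes encode lipid-binding proteins and have no known part in the coats. SEC14L2 read 10.31, 10.10, 10.04, 9.91 and 10.61 (CON) and 9.93, 10.06, 10, 10.19 and 10.04 (HIGH) at -8 d, and 10.42, 10.27, 10.24 and 10.45 (CON) and 9.92 to 10.28 (HIGH, median 10.11) at 1 d. SEC14L1 read 6.68, 6.71, 6.85, 6.74 and 6.73 (CON) and 6.83, 6.61, 6.46, 7.01 and 6.81 (HIGH) at -8 d, and 6.75, 6.73, 6.85 and 6.95 (CON) and 6.47 to 7.02 (HIGH, median 6.68) at 1 d. Neither passed: the changes were 0.10 (SE 0.06, adjusted p = 0.286) for SEC14L2 and 0.03 (SE 0.07, adjusted p = 0.818) for SEC14L1.

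Genes that share a symbol stem were set side by side in 11 pairs, SEC11C and SEC11A among them. Each difference is the within-cow change of 1 gene minus that of the other in the 8 cows with both days. The pairs were chosen after the values were seen, so the differences are descriptions and no p-value is read from them. SEC61A1 exceeded SEC61A2 by 0.60 ± 0.44 (SD), in 7 of 8 cows. SEC22B exceeded SEC22A by 0.34 ± 0.19, in 8 of 8 cows. COPZ1 exceeded COPZ2, the other form of the zeta subunit, by 0.51 ± 0.49, in 7 of 8 cows. TRAPPC2 and TRAPPC2L, which are separate subunits of TRAPP, differed by 0.38 ± 0.34, in 7 of 8 cows. That difference uses the brighter TRAPPC2 probe set (-0.01), while the dimmer one rose by 0.36 (adjusted p = 0.0027). SEC24C exceeded SEC24B by 0.20 ± 0.41, in 6 of 8 cows, and SEC22B exceeded SEC22C by 0.19 ± 0.31, in 6 of 8. For SEC22C over SEC22A the difference was 0.15 ± 0.26 (5 of 8 cows), and for SEC14L2 over SEC14L1 it was 0.07 ± 0.11 (6 of 8). The difference of SEC31A from SEC31B ran from -0.68 to 0.97 between cows, and that of COPG1 from COPG2 was 0.26 ± 0.40, positive in 7 of 8 cows. COPG2 (mean level 3.11) and SEC31B (mean level 4.48) were dim, and dim probe sets can understate change, so these pairs do not show that the forms differ.

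Each class was also averaged in every array, as the difference from the mean over the -8 d arrays. The translocon mean was 0.09 ± 0.09 (SD) in CON and -0.09 ± 0.06 in HIGH at -8 d, 0.40 ± 0.15 and 0.58 ± 0.24 at 1 d, and 0.06 ± 0.15 and 0.08 ± 0.12 at 9 d. From -8 d to 1 d it increased in each of 8 cows, by 0.16 to 0.99, and from 1 d to 9 d it decreased in each of 10 cows. The signal peptidase mean was 0.31 ± 0.16 (CON) and 0.51 ± 0.21 (HIGH) at 1 d, against 0.07 ± 0.07 and -0.07 ± 0.05 at -8 d. The COPII mean at 1 d was -0.03 ± 0.08 in CON and -0.02 ± 0.16 in HIGH, and the TRAPP mean was -0.04 ± 0.06 and -0.05 ± 0.08. These averages hide opposite members, such as SEC16B and SEC13 in the COPII coat.

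**Figure D3:**
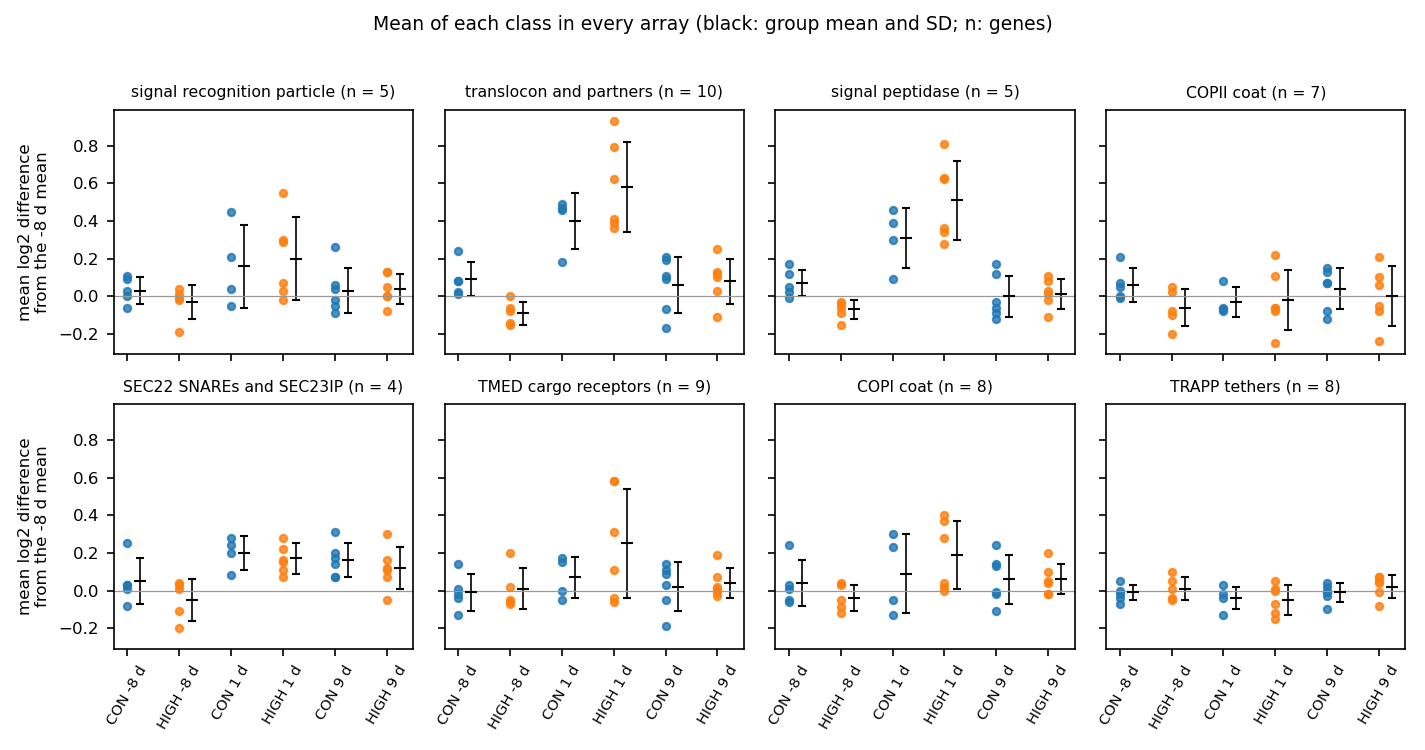
Mean of each role class in every array, as the log2 difference from the -8 d mean (points: arrays, blue CON and orange HIGH; black: group mean and SD; n: genes in the class). Translocon and signal peptidase means are raised in both diets at 1 d (0.18 to 0.93 and 0.09 to 0.81) and back near 0 at 9 d, while COPII and TRAPP means stay near 0.

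By 9 d most of the rise was gone, and fewer genes stood apart from -8 d. At 9 d against -8 d, 6 of the 58 genes were higher and 3 lower, where 7.79% of all genes were higher and 5.08% lower. The median log2 fold change was 0.043 for the 58 genes and -0.0062 for all genes. Translocon genes had 1 call of 10 (SSR3), and signal peptidase and SRP none of 5 each. The other genes that were higher were SEC22B, SEC23A, SEC24C, TRAPPC3 and TMED4, and those that were lower were SEC16B, TRAPPC2L and TRAPPC6B. The comparisons of 1 d and of 9 d share the -8 d arrays, so they are not independent. Of the 9 calls, 7 held in every fit that left out 1 array or cow, and 5 in all settings. TMED4 (0.25, adjusted p = 0.03) was lost in 15 of 44, and TRAPPC2L (-0.24, adjusted p = 0.0215) without cow 439, 462 or 528 (highest adjusted p 0.0734). Both were lost with no block for cow and with only the cows that had all 3 days.

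SEC16B had the smallest p at 9 d. CON cows then read 6.44 to 7.27 (median 6.89) and HIGH cows 6.32 to 7.24 (median 6.74), and all 10 cows with both days were lower than at -8 d. SEC16B was at -0.56 (SE 0.10, adjusted p = 0.000276) against -8 d, between its -8 d and 1 d levels. SEC22B read 8.51 to 9.28 in CON (median 8.82) and 8.54 to 8.80 in HIGH (median 8.76) at 9 d. It was higher than at -8 d in all 10 cows (0.41, SE 0.08, adjusted p = 0.000762).

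TRAPPC3 read 8.41 to 8.77 in CON (median 8.56) and 8.45 to 8.95 in HIGH (median 8.72) at 9 d. The rise against -8 d was close to the same in each of the 10 cows, between 0.28 and 0.43 (0.35, SE 0.07, adjusted p = 0.00143). SEC24C (0.31, SE 0.06, adjusted p = 0.00129) and SEC23A (0.25, SE 0.07, adjusted p = 0.0125) were higher in 10 of 10 cows as well, and the SEC23A call was lost with only the cows that had all 3 days. SSR3 read 10.65 to 11.26 in CON (median 11.06) and 10.61 to 11.42 in HIGH (median 11.14), and was still above -8 d in 10 of 10 cows (0.44, SE 0.10, adjusted p = 0.00488). TRAPPC6B was lower by 0.22 on the log2 scale (log2 fold change -0.22, SE 0.04, adjusted p = 0.001) in 9 of 10 cows, a call lost when both of its probe sets were averaged.

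Between 1 d and 9 d most calls were lower. At 9 d against 1 d, 24 of the 58 genes fell and 3 rose, where 10% of all genes fell and 7.44% rose. The median was -0.101 for the 58 genes and -0.0068 for all genes. The genes that fell were 9 of 10 in the translocon class (median -0.465), 4 of 5 for signal peptidase (median -0.409), 6 of 9 for TMED, 2 of 5 for SRP (SRP14 and SRP72), COPE, SEC13 and SEC22C. SRP9 (-0.11), SRP19 (-0.13), SRP68 (0.03), SEC62 (0.03) and SEC11A (0.12) did not pass. This comparison uses the same 1 d arrays as the comparison with -8 d, so a 1 d array that reads high enters both.

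SEC11C had the smallest p of this step. At 9 d SEC11C ran from 10.77 to 11.27 in CON (median 11) and from 11 to 11.16 in HIGH (median 11.10), and no 9 d array reached a 1 d array. It fell by 0.83 on the log2 scale (SE 0.07, adjusted p = 8.05e-10), in 10 of 10 cows. TMED3 (-0.72), SSR3 (-0.69), SEC61A1 (-0.66), SPCS3 (-0.66) and SSR4 (-0.57) fell in 10 of 10 cows too, with adjusted p from 5.13e-06 to 0.00126. The 3 that rose were TMED6 (1.28, SE 0.31, adjusted p = 0.00492), SEC16B (0.44, SE 0.10, adjusted p = 0.00289) and TRAPPC9 (0.20, SE 0.04, adjusted p = 0.00139), each in 10 of 10 cows. Of the 27 calls, 20 held in every fit that left out 1 array or cow and in the other settings. The exceptions were SEC13, SRP14, SRP72, SEC22C, SEC61A2, TMED5 and TMED10. SEC13 was lost without CON 1 d replicate 1 or cow 510 (highest adjusted p 0.0539), SRP14 without CON 1 d replicate 1 or its cow, 445 (0.0882), and SRP72 without that array, cow 445 or cow 439 (0.114).

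The diets were then compared on each day, which asks whether feeding more energy before calving left a different level of these genes. No member passed for HIGH against CON at -8 d, 1 d or 9 d, where 0%, 0.0109% and 0% of all genes passed (limma, adjusted p under 0.05). At an unadjusted p under 0.05 there were 5 of 58 members at -8 d, 10 at 1 d and 0 at 9 d, where 4.29%, 8.25% and 3.04% of all genes were under it. At -8 d the smallest p was that of SEC31A, an outer coat subunit, with 11.23, 10.80, 11.02, 11.23 and 11.06 in CON and 10.71, 10.92, 10.87, 10.84 and 10.83 in HIGH. The difference was -0.24 (SE 0.10, adjusted p = 1.00), and the groups overlapped.

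At 1 d the smallest p was that of TMED10, a TMED protein of the early secretory pathway, which read 12.52, 12.10, 12.26 and 12.44 in CON and 12.31 to 13.03 in HIGH, with a median of 12.62. The difference was 0.32 (SE 0.09, adjusted p = 0.363). At 9 d the smallest p was that of SRP68, with 7.34 to 7.44 in CON (median 7.38) and 7.36 to 7.63 in HIGH (median 7.5), a difference of 0.11 (SE 0.08, adjusted p = 0.998). A difference that missed the threshold does not show that the diets had the same level.

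The number of members past the threshold over calving was larger in HIGH cows, but the difference between the diets did not pass a test for any gene. At 1 d against -8 d in HIGH cows 27 of the 58 rose and 4 fell (12.8% and 8.78% of all genes), and in CON cows 5 rose and 1 fell (4.8% and 3.23% of all genes). The CON group at 1 d held 4 arrays and the HIGH group 6. The medians of the 58 changes were 0.258 in HIGH and 0.135 in CON, and 45 and 40 of the changes were above 0. In CON the 5 that rose were SSR3 (0.88), SEC11C (0.66), SSR4 (0.47), SEC23A (0.44) and TMED5 (0.44), and SEC16B fell by 1.23. In HIGH the largest were SSR3 (1.38), TMED3 (1.26), SEC61A1 (1.12) and SEC11C (1.08), and TMED6 fell by 1.91.

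The diet by time term is the HIGH change minus the CON change. At 1 d it passed for 0 of the 58 genes (0% of all genes), with 17 at an unadjusted p under 0.05 (7.57% of all genes). At 9 d it passed for 0 (0% of all genes), with none at an unadjusted p under 0.05 (2.91% of all genes). The 17 at 1 d were all positive, where 4.05% of all genes were under that p and positive, and included 5 translocon genes (SEC61A1, SEC61B, SEC63, SSR2 and SSR3), 4 signal peptidase genes (SEC11C, SPCS1, SPCS2 and SPCS3) and 4 TMED genes (TMED2, TMED3, TMED9 and TMED10). The positive term of SEC16B (0.46) marks a smaller fall in HIGH. The largest was SEC61A1 (0.71, SE 0.25, adjusted p = 0.579). The smallest p was that of TMED10 (0.42, SE 0.13, adjusted p = 0.579). At -8 d TMED10 read 12.43, 12.20, 12.35, 12.37 and 12.42 in CON and 12.21, 12.22, 12.29, 12.28 and 12.30 in HIGH, so that its change was -0.02 (adjusted p = 0.944) in CON and 0.40 (adjusted p = 0.00101) in HIGH. These TMED10 values are from its brighter probe set. The dimmer one rose more, by 0.72 averaged over the diets (limma, adjusted p = 9.2e-09), and was not compared between diets. At 9 d the smallest p was that of SEC11C (0.27, SE 0.13, adjusted p = 1.00). The median diet by time term at 1 d was 0.160 for the 58 genes and 0.0044 for all genes. It was 0.376 for the translocon class, 0.417 for signal peptidase, 0.052 for COPII and -0.018 for TRAPP. The median HIGH minus CON difference was -0.228 at -8 d and 0.120 at 1 d for the translocon class. For signal peptidase it was -0.183 and 0.233. In these classes the term thus combines a lower level in HIGH at -8 d with a higher one at 1 d.

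**Figure D4:**
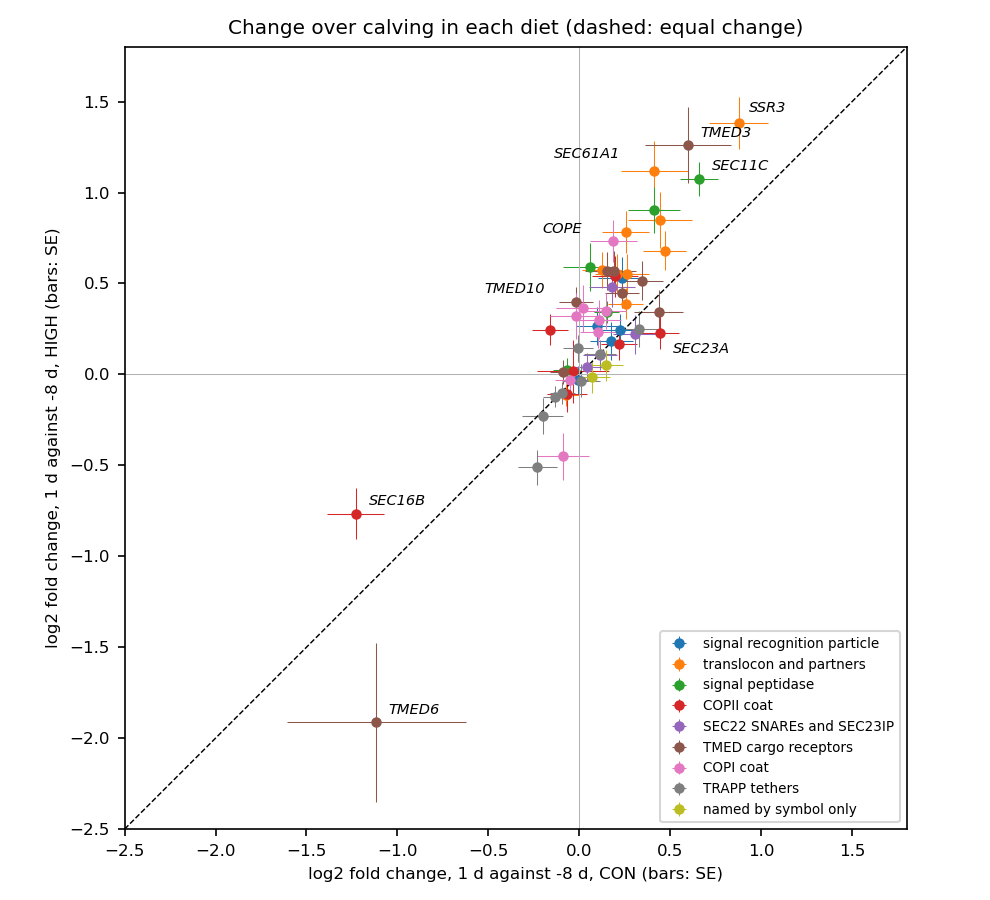
Log2 fold change at 1 d against -8 d in HIGH cows (vertical axis) against that in CON cows (horizontal axis) for each of the 58 genes, coloured by role class, with SE bars; the dashed line marks equal change. SSR3 (0.88 in CON, 1.38 in HIGH), SEC61A1 and TMED3 lie above the line, TMED6 and SEC23A below it, and no gene passed the test of the difference between diets.

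The later steps within each diet gave fewer calls. At 9 d against -8 d, SEC16B alone was called in CON (-0.63), with 0 of 58 higher and 1 lower (1.65% and 1% of all genes). In HIGH 4 were higher (SEC22B, SEC24C, SSR3 and TRAPPC3) and 2 lower (SEC16B and TRAPPC6B), against 3.87% and 1.26% of all genes. The count of 6 became 3 with no block for cow, and 0 without cow 462. At 9 d against 1 d, 2 rose and 4 fell in CON (1.58% and 2.01% of all genes), and 1 rose and 21 fell in HIGH (6.01% and 6.31% of all genes). The 4 that fell in CON were SEC11C, SPCS3, SSR3 and SSR4, and the count of 6 in CON became 2 with no block for cow.

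Over and above the day and the diet, members of some classes varied together between arrays. After the 6 group means were removed, the median Pearson correlation between pairs of genes over the 32 arrays was 0.57 for SRP, 0.45 for the COPI coat, 0.37 for signal peptidase, 0.28 for the translocon class, 0.20 for TMED, 0.14 for COPII and 0.01 for TRAPP. It was 0.19 over all pairs of the 58 genes and 0.00 over all genes. These are descriptions: genes of 1 array share its RNA, its labelling and its scaling.

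Other genes of the pathway, in lists that were not part of the symbol rule, were read the same way. At 1 d against -8 d, 33 of 62 such genes rose and 3 fell, with a median of 0.203, where 16.5% of all genes rose and 12.3% fell. All 3 measured genes of the SRP receptor and the TRAM proteins beside the channel rose: SRPRA (0.51), TRAM1 (0.61) and TRAM2 (0.97). Of 11 oligosaccharyltransferase genes, which add sugar chains to proteins as they enter the ER, 9 rose with a median of 0.622, among them STT3B (0.93, adjusted p = 9.44e-09), DDOST (0.91, adjusted p = 1.56e-07) and RPN2 (0.70, adjusted p = 4.68e-09). At 9 d against -8 d no gene of that list passed (0 of 11), and 9 of its genes fell between 1 d and 9 d (median -0.591), where 10% of all genes fell.

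The ER membrane complex and the tail-anchor pathway, which insert other kinds of membrane protein, had 4 of 12 genes that rose and a median of 0.038. Among 6 COPII GTPase and exit-site genes, PREB (0.60), SAR1B (0.53), SAR1A (0.48) and TFG (0.35) rose and MIA2 fell by 0.18 (median 0.412). Of 8 ARF and COPI regulators 5 rose, led by ARF4 (0.45) and ARCN1 (0.42), the delta subunit of coatomer (median 0.209). Of 9 cargo and retrieval receptors 6 rose and 1 fell (median 0.219). KDELR3, a receptor that returns ER proteins from the Golgi, rose by 1.37 (SE 0.19, adjusted p = 3.8e-06), KDELR2 by 0.30, and ERGIC3 fell by 0.16. Of 13 tethers and SNAREs of the ER to Golgi step 2 rose (RAB1A, 0.37, and USO1, 0.28) and 1 fell (GOSR2, -0.17), with a median of 0.068. For all genes, 16.5% rose and 12.3% fell. At 9 d against -8 d the 62 genes had 6 higher and 1 lower, where 7.79% of all genes were higher and 5.08% lower. Between 1 d and 9 d 23 fell and 0 rose, where 10% of all genes fell and 7.44% rose.

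Among 4 measured transcription factors known to act on secretory genes, CREB3L3, a liver factor activated by cleavage on its way through the Golgi, rose by 0.76 (SE 0.12, adjusted p = 1.42e-05). CREB3, CREB3L2 and ATF6B had changes of 0.03 to 0.05 that did not pass. The secreted products themselves were mixed: of 8 plasma proteins, HP (4.84), FGB (0.88) and APOA1 (0.80) rose, ALB (-0.08), APOB (-0.19), TF (-0.10) and TTR (-0.32) fell, and SERPINA1 was at 0.02 (adjusted p = 0.694). The brightest probe sets, such as that of ALB, are near the top of the scale, where arrays compress changes.

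Markers of the cells in the biopsy were set beside these results. Hepatocyte markers had mean levels of 12.86 to 13.15 over all arrays, with 2 of 8 higher and 4 lower at 1 d, where 16.5% of all genes were higher and 12.3% lower. They were ALB, APOB, TTR, TF, SERPINA1, ASGR1, CPS1 and HNF4A. The plasma protein genes among them are those given above, so the list is not a separate reading of cell content. Of 5 neutrophil markers 4 rose at 1 d (S100A12 2.43, S100A8 1.66, LTF 1.54, S100A9 0.80) and MPO did not pass (0.04, adjusted p = 0.79). Their mean level was 6.02 to 6.84 over the -8 d arrays, 7.05 to 8.94 over the 1 d arrays and 6.36 to 7.69 over the 9 d arrays. Of 5 B and plasma cell markers, DERL3 rose (0.29, adjusted p = 0.00257), a gene of ER-associated degradation that other secretory cells also use, while MZB1 (0.03, adjusted p = 0.775) and JCHAIN (0.17, adjusted p = 0.68) did not pass, and the list's mean level was 5.75 to 6.34 over all arrays. At 1 d against -8 d the counts higher and lower were 1 and 1 of 7 for Kupffer cells and macrophages, 0 and 4 of 9 for T and NK cells, 0 and 0 of 5 for erythroid cells, 0 and 1 of 7 for stellate cells and fibroblasts, 0 and 1 of 6 for endothelial cells, and 0 and 0 of 4 for cholangiocytes. In biopsies, more cells of a type and more RNA per cell cannot be told apart. The part of the neutrophil signal in the secretory results was not tested.

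The 3′ to 5′ differences of the control probe sets, a reading of RNA and labelling quality, were also compared. That of elongation factor 1 alpha averaged -0.68 ± 0.12 in the 10 arrays of -8 d, -1.07 ± 0.15 in the 10 arrays of 1 d and -0.81 ± 0.13 in the 12 arrays of 9 d (mean ± SD), so it moved with the day. Those of GAPDH were 0.54 ± 0.06, 0.53 ± 0.13 and 0.58 ± 0.06, and those of actin 1.60 ± 0.27, 1.61 ± 0.23 and 1.78 ± 0.70. With the GAPDH and actin difference as a covariate, 36 members were called at 1 d against -8 d, and 9 d against 1 d in CON dropped from 6 calls to 3. The part of the elongation factor difference in the results was not tested.

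The 58 genes had 88 probe sets, 22 of the genes had several, and in none did 2 probe sets pass in opposite directions. At 1 d against -8 d, 7 genes had both called and uncalled probe sets: SEC23IP, SEC61A2, SEC63, SPCS3, SRP72, TMED5 and TRAPPC2. At 9 d against 1 d there were 8: SEC22C, SEC61A2, SEC63, SPCS3, SRP72, SSR3, TMED5 and TRAPPC2. In that step the dimmer SSR3 probe set was at -0.30 (limma, adjusted p = 0.0665), and the dimmest of SEC63 at 0.10 (adjusted p = 0.173). TMED10 rose by 0.19 at its brighter probe set (adjusted p = 0.0267) and by 0.72 at the dimmer one (adjusted p = 9.2e-09). The call of the brighter probe set was lost in 8 of 44 fits that left out 1 array or cow (highest adjusted p 0.0783), with no block for cow and after a further quantile normalisation.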

How the data were processed

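Total liver RNA was hybridised to 1-colour Affymetrix bovine arrays, 1 per biopsy. The authors deposited log2 values made by RMA in Affymetrix Expression Console 1.1, per the submitters' processing notes. RMA's settings are not given in the sources used here. It gives all arrays nearly the same distribution (medians 5.87 to 5.935), so a change is relative to the bulk of probe sets. Arrays have no read depth, and precision is limited by how many there are.

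After removal of 112 controls, 24016 of the 24128 probe sets were fitted with limma 3.58.1 (R 4.3.3, statmod 1.5.0): 6 group means, cow as a random block (correlation 0.138), empirical Bayes with a mean-variance trend, and Benjamini-Hochberg adjustment over all 24016, two-sided. Probe sets with 1 annotated symbol numbered 13292. The fit was tested on simulated data. Arrays were paired by the cow numbers in the labels, not by the replicate numbers, and p-values measure the spread among these cows. The study's text names more cows than the 12 in the labels.

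The members and gene lists were chosen with earlier results of these data known. Named with values per array were, for each role class, the genes with the 2 smallest p and the lowest change at 1 d against -8 d, plus the smallest p of every other comparison over both diets or between diets. SEC61A1 and the pairs of related genes were chosen after their values were seen. Alternatives changed the block, trend, scaling, filter, probe set rule, cows and a 3′ to 5′ covariate, and left out each array and each cow. No sequences were used here.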

Additional observations from a re-analysis of the deposited data

Results flagged for a closer look

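In groups of 4 to 6 arrays, the highest and lowest array of each named gene were set against the others by Dixon's ratio, in 156 groups, of which chance flags about 1 in 20. In 4 groups 1 array stood apart. SSR3 in CON at -8 d had a highest array of 11.13, with the next at 10.73, and COPE in the same group had 10.21, with the next at 9.94. COPZ2 in CON at 9 d had a lowest array of 9.31, with the next at 9.84, and SEC62 in the same group had 11.02, with the next at 11.25.

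The 26 named genes were also scanned, in each of 3 comparisons of days, for changes that differed between CON and HIGH cows. Only TMED6 was flagged, so it is the most extreme of many looks. TMED6 moved in opposite directions between -8 d and 9 d: all 5 CON cows with both days were higher at 9 d, by 0.06 to 0.36, and all 5 HIGH cows were lower, by 0.45 to 0.87 on the log2 scale (changes of -0.87 to -0.45). The HIGH minus CON difference of these within-cow changes was -0.81 and was not itself tested. The diet by time term of the fit, which also uses the cows with 1 of the days, was -0.67 (SE 0.62, adjusted p = 1.00).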

How the results depend on the processing

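Over 31 results for named genes, the 12 other settings kept direction and side of the threshold in 355 cases and lost the call in 6, with no reversal. The 355 include results that were not called in the main fit and so had no call to lose. For changes against -8 d, 1 of the 12 settings was exact sign flips of the within-cow changes. It was read at an unadjusted p under 0.05, an easier threshold than that of the main fit. With only the cows that had all 3 days, the calls of named genes lost at 1 d against -8 d were SEC22C (0.19, adjusted p = 0.165), COPB2, COPZ2 (-0.23, adjusted p = 0.168) and TRAPPC3. Among the other members, SEC24C and TRAPPC11 lost their calls there too. Leaving out 1 array or 1 cow kept 1342 cases, lost 19 and reversed 3. The reversals were all of SRP68, which was never called, at 0.01, 0.00 and 0.00 without CON 1 d replicate 2, CON 1 d replicate 4 or cow 510 (range -0.07 to 0.01).

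The pairing came from cow numbers. With no replicate block, the count of members past the threshold was 31 in place of 36 at 1 d against -8 d, 3 in place of 6 at 9 d against -8 d in HIGH and 2 in place of 6 at 9 d against 1 d in CON. With cow as a fixed replicate block it was 2 in place of 1 at 9 d against -8 d in CON, and diet contrasts could not be fitted. The filter of 6 or more in at least 4 arrays gave 3 there. The covariate gave 3 at 9 d against 1 d in CON. With only the cows that had all 3 days, the counts were 2 at 1 d against -8 d in CON, 0 and 3 at 9 d against -8 d in CON and HIGH, and 1 at 9 d against 1 d in CON. These fits use fewer arrays; elsewhere the cause was not tested. Leaving out 1 array or cow gave 31 to 37 (1 d against -8 d), 7 to 10 (9 d against -8 d), 22 to 28 (9 d against 1 d), 3 to 8 and 26 to 35 (1 d against -8 d in CON and HIGH), 0 to 2 and 0 to 7 (9 d against -8 d in CON and HIGH), and 2 to 8 and 17 to 24 (9 d against 1 d in CON and HIGH). The counts for diet and for diet by time were 0 in every setting run. Probe sets near the array background or near the top of the scale can understate change.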
